A study of Mus musculus with 2 samples.

Results

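The CC chemokines described here are 10 genes of the deposited expression table, chosen by name from the chemokine family, out of 34714 genes in all: Ccl2, Ccl3, Ccl4, Ccl5, Ccl6, Ccl7, Ccl9, Ccl12, Ccl22 and Ccl24. All 10 were found in the table. The table holds 1 RNA sequencing library of mouse bone marrow-derived macrophages given the anti-CD40 antibody FGK45 for 24 h and 1 library of such cells given IgG. Both libraries came from C57BL/6 marrow cells cultured in 10% serum and macrophage colony-stimulating factor at 20 ng/mL. FGK45 is a monoclonal antibody used to activate CD40, a receptor that T cells engage through CD40 ligand. The labels do not say how many mice or cultures each library pools. With 1 library per group there is no replicate check, so no difference was tested and genes are given only as higher or lower in 1 library than in the other.

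CC chemokines are small secreted proteins named after a pair of adjacent cysteines near the start of the mature chain. They bind receptors on white blood cells and direct their migration along a gradient, and macrophages are among their main sources in inflamed tissue. Ccl2, Ccl7 and Ccl12 act on Ccr2 of monocytes, and Ccl6 and Ccl9 on Ccr1. Ccl3, Ccl4 and Ccl5 attract monocytes, macrophages and T cells. Ccl22 acts on Ccr4 of T cells and Ccl24 on Ccr3 of eosinophils. NF-kB, which CD40 activates, is a known activator of transcription of several of these genes.

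The coding sequences carry the feature that names the family, and are shown for the genes other than Ccl3 around the pair of adjacent cysteine codons, which stands in capitals. Each line is read 5′ to 3′ from the GENCODE M21 transcript (GRCm38), with 12 bases on either side of the pair.
Ccl2: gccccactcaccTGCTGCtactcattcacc
Ccl4: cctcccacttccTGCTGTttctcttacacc
Ccl5: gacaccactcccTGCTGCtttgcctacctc
Ccl6: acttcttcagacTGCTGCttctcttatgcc
Ccl7: aatgcatccacaTGCTGCtatgtcaagaaa
Ccl9: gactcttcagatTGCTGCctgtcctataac
Ccl12: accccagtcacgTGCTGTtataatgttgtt
Ccl22: gaagacagtatcTGCTGCcaggactacatc
Ccl24: atcccctcatctTGCTGCacgtcctttatt
All 10 genes held such a pair in frame, at codons 34 and 35 in Ccl2, Ccl3 and Ccl4, at codons 33 and 34 in Ccl5, Ccl7, Ccl12 and Ccl24, and later in Ccl22, Ccl6 and Ccl9. Ccl24 held 2 such pairs, and the later is shown. Over the 45 pairs of genes, the coding sequences most alike were Ccl2 and Ccl7, with 72.4% identical bases in a global alignment, gaps left out. Next came Ccl3 and Ccl4 (71.4%), and Ccl6 and Ccl9 (70.6%). Each of these pairs lies close together on chromosome 11. Barely less alike were Ccl12 and Ccl22 (70.2%), on different chromosomes, and Ccl3 and Ccl12 (70.1%), which are not close neighbours. Within GENCODE M21, no stretch of 50 bases of 9 of the transcripts occurred in a transcript of another gene, on either strand. Ccl9 was the exception, with 59 of 2957 such stretches (2.0%) shared.

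Levels are in FPKM, which scales fragments to transcript length and to the size of the library. Markers were compared with the macrophage label first. All 8 listed macrophage markers stood above 1 FPKM in both libraries, among them Adgre1 at 94.4 FPKM under anti-CD40, against 78.3 under IgG. Csf1r stood at 333 FPKM under anti-CD40, against 333 under IgG. Of the 7 dendritic cell markers none reached 1 FPKM, their sum was 0.714 FPKM under anti-CD40, against 0.479 under IgG, and Flt3 was listed at 0 in both libraries. The 7 markers of T and NK cells were all listed at 0 in both. Of 7 neutrophil markers 4 were listed at 0 in both, and S100a8 alone passed 1 FPKM, at 1.82 FPKM under anti-CD40, against 1.11 under IgG. The megakaryocyte list summed to 27.0 FPKM under anti-CD40, against 20.5 under IgG, with Pf4 and Itga2b at the highest levels. Pf4 was higher under anti-CD40, at 16.4 FPKM against 10.5 under IgG. Itga2b was lower, at 7.77 FPKM under anti-CD40 against 8.29 under IgG. None of the listed markers of monocytes, eosinophils, mast cells and basophils, B cells, fibroblasts or endothelial cells reached 1 FPKM, and the sums of these 6 lists ran from 0.397 to 1.21 FPKM under anti-CD40 and from 0.385 to 0.845 under IgG. In bulk RNA, fewer cells of a type and less RNA per cell cannot be told apart. The part of these markers in the chemokine values was not tested.

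The 10 genes spanned more than 3 orders of magnitude in level, and 3 of them held most of it. Ccl4, Ccl9 and Ccl3 together made up 90.2% of the summed FPKM of the 10 genes with anti-CD40 and 88.9% with IgG. That sum was 639 FPKM with anti-CD40 and 560 FPKM with IgG. The 10 genes in turn held 67.2% of the summed FPKM of all chemokine genes with anti-CD40 and 72.3% with IgG. With anti-CD40 the order of levels from high to low was Ccl4, Ccl9, Ccl3, Ccl6, Ccl5, Ccl2, Ccl7, Ccl12, Ccl22 and Ccl24. In the IgG library the order was the same but for Ccl12, which stood above Ccl7. The spread between cultures is unknown, so neighbours could be compared only through counting error, taken from exact Poisson intervals on approximate fragment numbers at 95%. By these, Ccl9 (136 to 142 FPKM) and Ccl3 (127 to 138) overlapped with anti-CD40 and did not with IgG, where they ran from 127 to 133 and from 106 to 117. The intervals of Ccl7, Ccl12, Ccl22 and Ccl24 overlapped from each to the next in both libraries, so the order of these neighbours is not determined at this depth. Apart from these and from Ccl9 and Ccl3 with anti-CD40, no neighbours in the order overlapped.

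**Figure D1:**
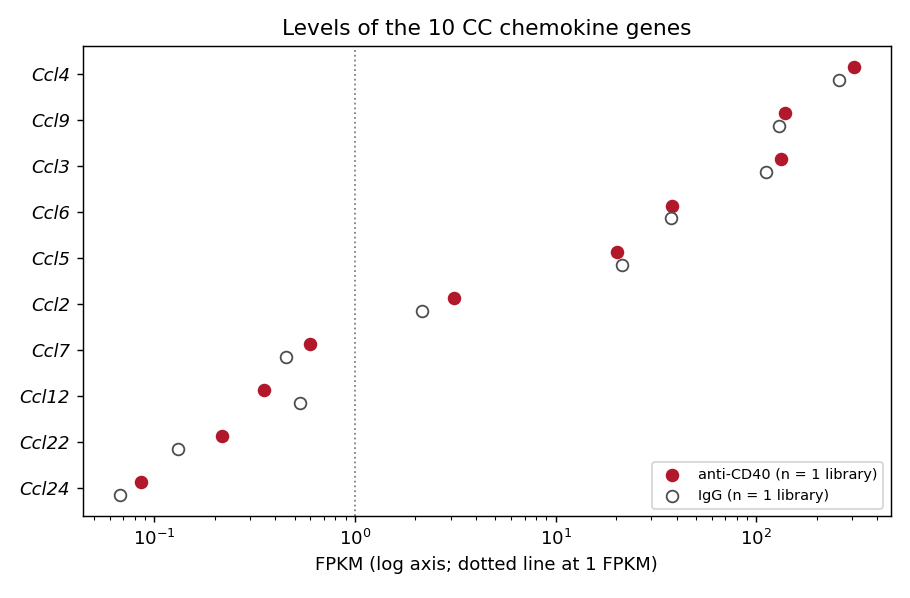
FPKM of each of the 10 genes (log axis) in the anti-CD40 library (filled, upper point of each row) and the IgG library (open, lower point), 1 library each, with a dotted line at 1 FPKM. Ccl4, Ccl9 and Ccl3 sit above 100 FPKM in both libraries, and Ccl7, Ccl12, Ccl22 and Ccl24 sit below 1 FPKM in both.

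The most abundant of the 10 genes was Ccl4, which encodes MIP-1β, an attractant of T cells and monocytes. It had 306 FPKM under anti-CD40, against 257 under IgG, at rank 234 of all genes in the table with anti-CD40 and rank 287 with IgG. The anti-CD40 value was 1.19-fold higher, with a 95% exact conditional binomial interval from 1.14 to 1.25. Such intervals, used from here on, cover counting error only and not the spread between cultures. Ccl3, which encodes MIP-1α, had 132 FPKM under anti-CD40, against 111 under IgG. The ratio was again 1.19 (interval 1.11 to 1.27). The level of Ccl4 over that of Ccl3 was thus 2.31 with anti-CD40 and 2.30 with IgG. These genes lie side by side on chromosome 11 and are transcribed in opposite directions, Ccl3 at 83647843 to 83649378 on the minus strand and Ccl4 at 83648624 to 83664683 on the plus strand (RefSeq, GRCm38.p6). Their RefSeq spans overlap, and since the strand setting of the counting is not given in the sources used here, reads in the overlap cannot be told apart.

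Genes in general stood slightly higher with anti-CD40: over the 9101 that reached 1 FPKM in both libraries the median ratio was 1.11, a shift of 0.12 on the log2(FPKM + 1) scale. Against that shift, the intervals of Ccl3 and Ccl4 lay above the median fold and those of Ccl6 and Ccl9 below it. Those of the other 6 genes contained it. The share of all genes whose intervals exclude the median fold was not computed, so these counts do not set the members apart. Ccl3 and Ccl4 remained higher once the shift was subtracted, by 0.13 each on the log2(FPKM + 1) scale. For Ccl3, Ccl6 and Ccl9 the nearer end of the interval clears the median fold by less than 0.01, and the width of the interval rests on the assumed fragment length.

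Ccl9, a Ccr1 ligand that mouse macrophages make in quantity, had 139 FPKM under anti-CD40, against 130 under IgG. The ratio was 1.07-fold, with an interval from 1.03 to 1.10, and came from some 8565 anti-CD40 fragments and 7275 IgG fragments, the most of any of the 10 genes. Ccl6, its closest relative in the list, had 38.1 FPKM under anti-CD40, against 37.6 under IgG, a ratio of 1.01 with an interval from 0.930 to 1.10. The log2 ratios of (FPKM + 1), 0.09 for Ccl9 and 0.02 for Ccl6, turn to -0.03 and -0.10 once centred on the median of all genes, and also turn below 0 after upper-quartile scaling. Ccl5, or RANTES, which attracts T cells and monocytes, had 20.1 FPKM under anti-CD40, against 21.4 under IgG. Its ratio of 0.939 had an interval from 0.771 to 1.13, so that a difference was not detectable at this depth. It was the 1 gene among the 6 at 1 FPKM or more that was lower with anti-CD40, and it stayed lower under every scaling tried.

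Ccl2, which encodes the monocyte attractant MCP-1, stood far lower, at 3.13 FPKM under anti-CD40, against 2.17 under IgG. Some 52 anti-CD40 fragments and 33 IgG fragments lay behind these levels, and the 1.44-fold difference had an interval from 0.905 to 2.28. Ccl7, the neighbour of Ccl2 and a second monocyte attractant, had 0.598 FPKM under anti-CD40, against 0.456 under IgG, from some 10 anti-CD40 fragments and 7 IgG fragments. Ccl12, mouse MCP-5, had 0.354 FPKM under anti-CD40, against 0.534 under IgG, from some 4 anti-CD40 fragments and 5 IgG fragments. The intervals on their ratios, from 0.444 to 4.0 for Ccl7 and from 0.144 to 3.36 for Ccl12, contain 1. The 3 Ccr2 ligands were therefore all low in macrophages of either group, none above 3.13 FPKM.

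Ccl22 and Ccl24, which macrophages are known to make after IL-4, were near the floor. Ccl22 had 0.217 FPKM under anti-CD40, against 0.131 under IgG, from some 10 anti-CD40 fragments and 5 IgG fragments, and the interval on its 1.66-fold difference ran from 0.564 to 6.75. Ccl24 had 0.0857 FPKM under anti-CD40, against 0.0672 under IgG, on about 2 fragments in each library. Ccl17, which lies some 64 kb from Ccl22 on chromosome 8 and acts on the same receptor, was listed at 0 in both libraries. Cx3cl1, which lies between them, had 0.190 FPKM under anti-CD40, against 0.0594 under IgG, with an interval on its ratio from 0.0943 to 107.

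**Figure D2:**
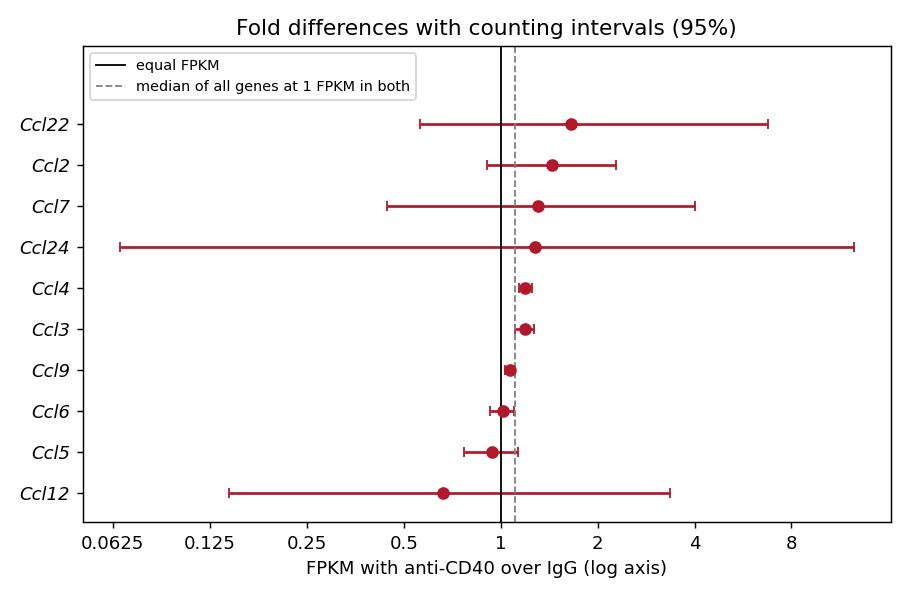
FPKM ratio, anti-CD40 over IgG, for each of the 10 genes (log axis), with 95% exact conditional binomial intervals on approximate fragment numbers, 1 library per group. The intervals of Ccl4, Ccl3 and Ccl9 lie above 1 and those of the other 7 genes contain 1. The share of all genes with an interval above 1 was not computed. The dashed line marks the median ratio of 1.11 over all genes that reach 1 FPKM in both.

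As a list, the 10 genes held no member that was counted as apart. A gene was counted as apart when its higher value was at least 1 FPKM and its log2 ratio of (FPKM + 1) passed 1.5-fold. Of the 6 members at 1 FPKM or more, 0 passed 1.5-fold on the higher side, where 2.68% of 9591 genes did, and 0 on the lower side, where 2.15% did. With so few members, a count of 0 is close to what these shares give. The other 4 members did not enter because of their low values. The median log2 ratio of the 6 was 0.17, beside 0.12 over all 9591 genes, with 3 above the median of genes at 1 FPKM in both libraries and 3 below it. In all, 257 genes were past 1.5-fold on the higher side and 206 on the lower. That split depends on the scaling, with 122 higher and 401 lower once centred on the median, 148 and 371 after upper-quartile scaling, and 333 and 158 with both libraries set to the same sum.

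**Figure D3:**
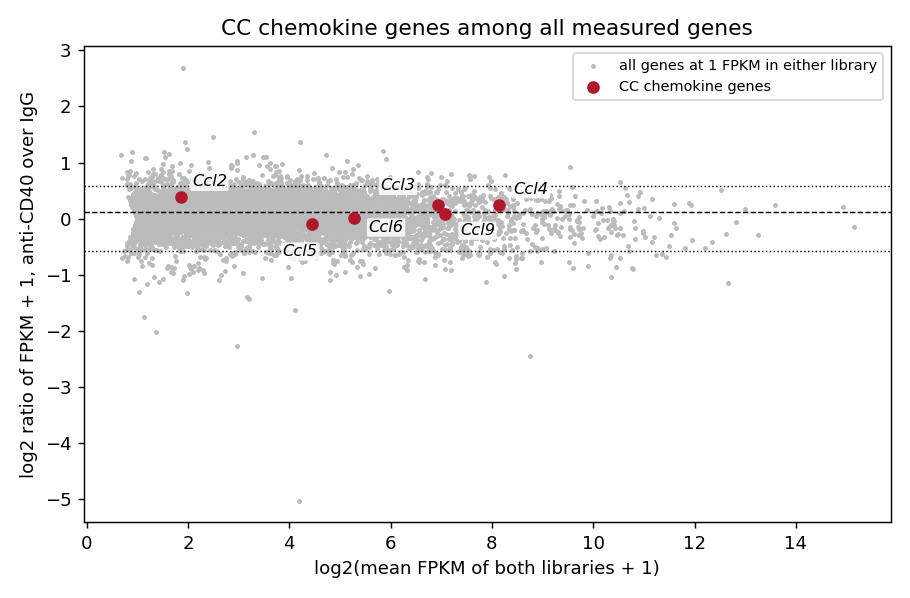
Log2 ratio of (FPKM + 1), anti-CD40 over IgG, against the log2 of the mean FPKM + 1 of both libraries, for the 9591 genes that reach 1 FPKM in at least 1 library (grey) and the 6 CC chemokine genes among them (red). Dotted lines mark 1.5-fold and the dashed line the median of 0.12, and all 6 chemokine genes lie between the dotted lines.

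The abundant and the rare genes of chromosome 11 lie in separate groups. Ccl5, Ccl9, Ccl6, Ccl3 and Ccl4 lie within 139 kb, from 83525778 to 83664683, and their levels ran from 20.1 to 306 FPKM with anti-CD40 and from 21.4 to 257 with IgG. Ccl2, Ccl7 and Ccl12 lie in a separate group of 144 kb, from 82035577 to 82179812, which ends with Ccl1, and none of its genes passed 3.13 FPKM. In that group Ccl11, an eosinophil attractant, and Ccl1 were listed at 0 in both libraries. Ccl8, a further monocyte attractant, had 0.378 FPKM under anti-CD40, against 0.0849 under IgG, a ratio of 4.46 with an interval from 0.358 to 178. Ccl22 is on chromosome 8, from 94745684 to 94751388, and Ccl24 on chromosome 5, from 135569935 to 135573123.

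**Figure D4:**
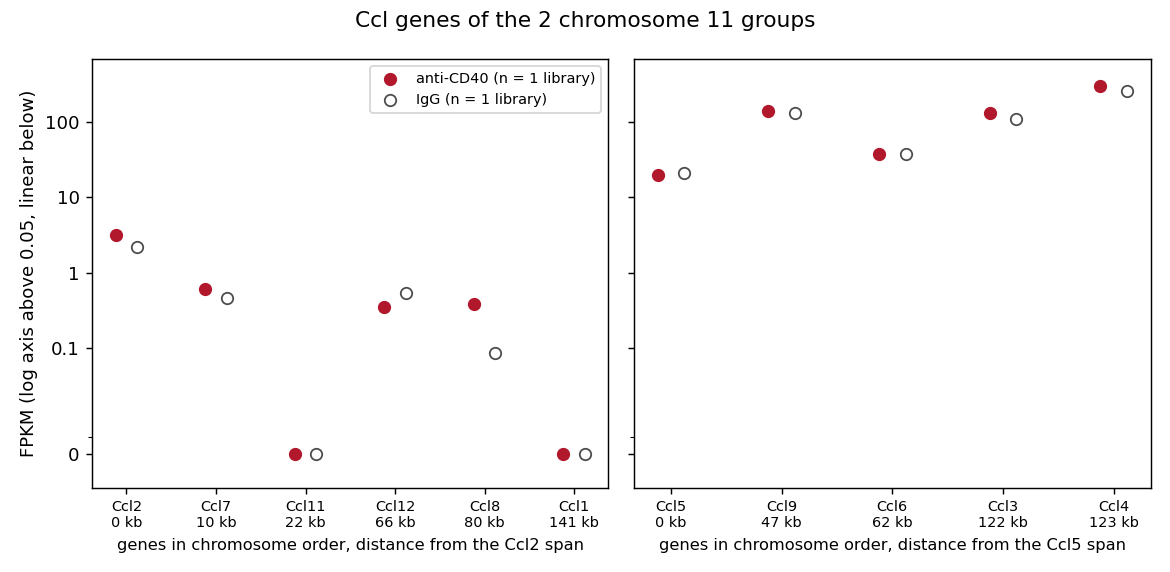
FPKM of the Ccl genes of the chromosome 11 groups in chromosome order, anti-CD40 (filled, left) and IgG (open, right), 1 library each, on an axis that is logarithmic above 0.05 and linear below. The distance under each name is that of the gene's lower coordinate from that of Ccl2 (left panel) or Ccl5 (right panel), and all 5 genes on the right stand above 20 FPKM while those on the left stand at 3.13 FPKM or less.

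RefSeq promoters, 250 bases before to 50 after the start, were at hand for 5 of the 10 genes, Ccl3, Ccl6, Ccl9, Ccl12 and Ccl22. They were searched for the TATA box (TATAAA, on the gene's strand), and on both strands for the kappaB consensus, for the AP-1 motif TGANTCA and for the STAT motif TTCNNNGAA. Shown are the abundant Ccl3 and Ccl9 and the rare Ccl12, with matches in capitals, 5′ to 3′ on the gene's strand (GRCm38.p6).
Ccl3, chr11:83649329-83649628, minus strand: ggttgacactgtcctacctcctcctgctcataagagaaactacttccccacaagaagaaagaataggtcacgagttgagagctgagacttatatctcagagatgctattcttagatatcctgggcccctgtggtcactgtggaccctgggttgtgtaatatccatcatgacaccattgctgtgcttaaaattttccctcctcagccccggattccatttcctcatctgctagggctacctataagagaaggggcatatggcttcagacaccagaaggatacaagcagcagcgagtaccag
Ccl9, chr11:83578587-83578886, minus strand: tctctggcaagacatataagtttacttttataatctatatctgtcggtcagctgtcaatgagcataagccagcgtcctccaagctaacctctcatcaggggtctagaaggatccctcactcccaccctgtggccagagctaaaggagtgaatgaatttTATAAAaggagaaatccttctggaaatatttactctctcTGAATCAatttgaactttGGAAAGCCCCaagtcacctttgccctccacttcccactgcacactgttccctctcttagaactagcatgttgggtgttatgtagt
Ccl12, chr11:82101595-82101894, plus strand: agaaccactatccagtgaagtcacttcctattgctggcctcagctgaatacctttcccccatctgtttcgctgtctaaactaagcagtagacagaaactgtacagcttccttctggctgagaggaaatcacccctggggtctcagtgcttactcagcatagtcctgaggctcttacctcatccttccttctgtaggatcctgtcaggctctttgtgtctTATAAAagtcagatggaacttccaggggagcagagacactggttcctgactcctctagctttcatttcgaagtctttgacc
Ccl9 held a match to the kappaB consensus, on the opposite strand at 35 to 26 bases before the start, as 8.46% of 32851 promoters held 1 or more. It also held an AP-1 match, found in 7.81% of promoters, and a TATA box, found in 8.32%, at 92 to 87 bases before the start. Ccl12 held a TATA box at 31 to 26 bases before the start. The STAT motif, held by 8.30% of promoters, had no match in the 5. Ccl3, Ccl6 and Ccl22 had no match to any of the 4 motifs, which says only that these letters are not in this window.

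Chemokine messages are often short-lived. The decay factor tristetraprolin, the product of Zfp36, binds AU-rich repeats in the 3′ untranslated region that contain ATTTA. A copy of ATTTA alone is not taken here as a tristetraprolin site, and binding was not tested. Of the 10 genes 8 held at least 1 ATTTA, and Ccl5 and Ccl24 held 0, where 65.2% of 21028 genes hold 1 or more in their longest 3′ untranslated region. The longer TTATTTATT, which 7.66% of these genes hold, was found in 0 of the 10. Ccl3 held 5 copies of ATTTA in 409 bases, a number that 0.999% of 1802 3′ untranslated regions of like length (0.8 to 1.2 times) reached or passed. Ccl12 held 5 in 167 bases, which 0.565% of 1238 regions of like length did. The 29 bases with the most repeats are shown for these 2 genes, with ATTTA in capitals, 5′ to 3′ (GENCODE M21, GRCm38).
Ccl3: actcttcacttgaaattttATTTAATTTA
Ccl12: cttgcttaaataatATTTAatggtATTTA
Ccl9 held 5 in 2465 bases, near the median of 4 for its length, and 45.0% of regions of like length held as many. For the remaining genes with a copy, that share was 13.0% for Ccl4, 15.9% for Ccl6, 19.6% for Ccl7, 34.8% for Ccl2 and 72.0% for Ccl22. Zfp36 itself had 306 FPKM under anti-CD40, against 182 under IgG, a ratio of 1.68 (interval 1.64 to 1.72). It was the 1 gene past 1.5-fold in a list of 9 regulators of message decay, not all of which promote it. Of the 9591 genes, 2.68% were past 1.5-fold on the higher side. Zc3h12a, the RNase regnase-1, had 6.47 FPKM under anti-CD40, against 4.61 under IgG. The median log2 ratio of the 9 was 0.20.

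The genes on a list of CC chemokine receptors were mostly low. Of 15 such genes 1 reached 1 FPKM, where 9591 of all 34714 genes did in either library. That gene was Ccrl2, an atypical receptor that binds chemerin and does not signal to migration. It had 22.8 FPKM under anti-CD40, against 13.1 under IgG, a ratio of 1.74 (interval 1.56 to 1.96). Ccr1 had 0.597 FPKM under anti-CD40, against 0.552 under IgG, and Ccr2 had 0.527 under anti-CD40, against 0.628 under IgG. The intervals on both ratios contained 1. Of the receptor genes 5 were listed at 0 in both libraries, among them the scavenging receptors Ackr1, Ackr2 and Ackr4. Of all 34714 genes, 17186 were at 0 in both.

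Of 14 other CC chemokines, 2 reached 1 FPKM and 9 were listed at 0 in both libraries. Over all 34714 genes these numbers were 9591 and 17186. Ccl25, best known from thymus and gut, had 1.76 FPKM under anti-CD40, against 0.953 under IgG, with an interval on its ratio from 1.02 to 3.55. Ccl27a, best known from skin and with a near copy in Ccl27b that makes its value uncertain, had 2.29 FPKM under anti-CD40, against 3.25 under IgG, with an interval from 0.410 to 1.23. Among 16 chemokines of other families, 6 reached 1 FPKM. All 6 were higher with anti-CD40, as were 67.8% of the 9591 genes at 1 FPKM or more. Cxcl10 was higher by a log2 ratio of 0.08, which lies under the median shift of 0.12 and so turns below 0 once centred. Of the 6, 3 passed 1.5-fold, where 2.68% of the 9591 genes did on the higher side. Those were the neutrophil attractants Cxcl1 and Cxcl2, at 2.38-fold and 2.12-fold, and the platelet factor gene Pf4, at 16.4 FPKM under anti-CD40, against 10.5 under IgG. Pf4 falls under 1.5-fold once centred on the median. It is also a member of the megakaryocyte marker list, and its source was not tested. The median log2 ratio of the 6 was 0.48, beside 0.17 for the CC chemokines at 1 FPKM or more, and the difference between the lists was not tested.

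A list of 15 genes held NF-kB subunits, inhibitors and upstream kinase components, all at 1 FPKM or more. Of these, 2 were past 1.5-fold higher and 0 lower, with a median log2 ratio of 0.16. Beside this and the lists below, 2.68% of the 9591 genes were past 1.5-fold higher and 2.15% lower. The inhibitor gene Nfkbia had 57.4 FPKM under anti-CD40, against 36.8 under IgG, and Tnfaip3 had 8.60 under anti-CD40, against 4.03 under IgG. Nfkb1 had 8.41 FPKM under anti-CD40, against 6.00 under IgG, and Nfkbiz had 3.74 under anti-CD40, against 5.53 under IgG. Of 13 interferon response genes measured, 12 reached 1 FPKM, 1 was past 1.5-fold higher (Irf1) and 1 lower (Irf7), with a median log2 ratio of -0.16. Usp18 there had 2.49 FPKM under anti-CD40, against 3.95 under IgG. These list counts depend on the scaling. Once the median shift of 0.12 is subtracted, Nfkbia and Irf1 fall under 1.5-fold and Usp18 passes it on the lower side. Of 13 IL-4 response genes 7 reached 1 FPKM and 0 passed 1.5-fold, with a median of 0.17. Egr2 there had 7.14 FPKM under anti-CD40, against 4.97 under IgG, Pparg had 12.4 under anti-CD40, against 10.6 under IgG, and Clec10a had 12.4 under anti-CD40, against 14.7 under IgG. Of 12 proteases that can trim chemokines, 6 reached 1 FPKM and 0 passed 1.5-fold. Their median was 0.08, with Ctsd at 8851 FPKM under anti-CD40, against 10793 under IgG, and Ctsb at 4240 under anti-CD40, against 3559 under IgG.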

How the data were processed

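Each group held 1 library. Per the labels' protocols, TruSeq libraries were made from 1.3 ug of TRIzol RNA. The submitters' processing notes name HISAT2 2.1.0, StringTie and mm10; annotation, strand setting and filters are not given in the sources available to this work. The authors deposited a gene table whose header gives no unit. The values that the authors deposited were taken as FPKM, fragments scaled to length and library size, because StringTie writes that unit and because the columns sum to 529104 (anti-CD40) and 547362 (IgG), which are unequal. TPM with genes left out would also sum unequally, so the unit is an inference. Every one of the 34714 symbols had a RefSeq gene in GRCm38.p6, and 0 sample columns were unused.

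Depth was read from the steps of the values. For low genes with 1 exon and equal RefSeq and GENCODE lengths, FPKM times length was fitted to a step per aligned base. Products counted as whole when within 0.05 of a multiple of 0.5 bases (in units of 0.5 bases): 68.2% of 22 genes for anti-CD40 and 100% of 9 for IgG. The steps imply 6.16 and 5.58 gigabases. Fragments were taken as 300 bases, which sets the approximate fragment numbers and the width of intervals and assumes that the unit is FPKM.

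Ratios were log2 of (FPKM + 1), anti-CD40 over IgG; folds are ratios of FPKM. Members and lists were chosen with earlier results of these data known. Named genes were all 10 members, cluster neighbours, and up to 4 genes per list with the largest ratio at 1 FPKM or more; genes below 1 FPKM, marker genes and Csf1r were named after their values were seen, and some items are not reported here. Alternatives were pseudocounts of 0.1 and 5, no filter or a filter at 5 FPKM, centring, and rescaling to the same sum or to the upper quartile. Python 3.11.15, pandas 2.3.3, numpy 2.4.6, scipy 1.17.1, Biopython 1.88 and matplotlib 3.10.9 were used.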

Additional observations from a re-analysis of the deposited data

How the results depend on the processing

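The counts of members at least 1.5-fold higher or lower with anti-CD40 were 0 under the pseudocounts, filters and scalings tried. Over all genes, the counts were 508 higher and 329 lower with a pseudocount of 0.1, 81 and 102 with a pseudocount of 5, 122 and 401 after centring on the median, and 148 and 371 after upper-quartile scaling, against 257 and 206 as reported. With both libraries set to the same sum, the members' median log2 ratio rose from 0.169 to 0.217. Ccl9 rose there from 0.091 to 0.140, beyond its counting error. The median was 0.050 after centring and 0.054 after upper-quartile scaling. These last scalings move every gene of a library alike. They lower the ratios of Ccl3, Ccl4 and Ccl9 beyond their counting error and turn Ccl6 and Ccl9 below 0. Centring also turns Ccl22 and Ccl24 below 0 on the log2(FPKM + 1) scale, to -0.01 and -0.09, whereas their log2 FPKM folds without a pseudocount stay above the median of genes at 1 FPKM in both libraries, by 0.58 and 0.20. Ccl5 and Ccl12 were lower, and Ccl2, Ccl3, Ccl4 and Ccl7 higher, with anti-CD40 in all settings. A pseudocount or a filter cannot change a sign, so only the scalings could have done so. The intervals of Ccl2, Ccl5, Ccl7 and Ccl12 contain 1, so their direction is not determined at this depth.

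No paired analysis was possible because each group holds 1 library, and no replicate was left out for the same reason. Depth limits Ccl7, Ccl12, Ccl22 and Ccl24, which rest on 10 or fewer fragments in each library, and to a lesser degree Ccl2.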
